A study of Mus musculus with 6 samples.

Results

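The miR-200 family was read on miRNA arrays of bone marrow-derived progenitor cells from diabetic db/db mice and their db/+ littermates. Its members were chosen by name, as the probes for miR-200a, miR-200b, miR-200c, miR-141 and miR-429 on either arm, which gave 10 of the 1900 mouse miRNA probes. The db/db cells came from adult male mice that lack a working leptin receptor and serve as a model of type 2 diabetes, and the db/+ cells from adult male littermates that carry 1 working copy. Marrow mononuclear cells of both genotypes were kept in endothelial growth medium for 4 days, freed of non-adherent cells and grown for 3 more days. Each genotype was represented by 3 arrays, each hybridised with 1 Cy5-stained sample made from 1 µg of total RNA. The labels name no sample in which IRE1α, the stress sensor in the title of the series, was manipulated, and its level was not measured here, so the arrays compare genotypes and hold no test of IRE1α itself. Whether the 3 samples of a genotype came from different animals is not stated in the labels, so p-values here measure only the spread between these samples.

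The family is known as a mark of epithelial cells, where it holds down the repressors Zeb1 and Zeb2 and so keeps E-cadherin on. In human endothelial cells miR-200b has been reported to lower ETS1, GATA2 and VEGFR2, which drive angiogenesis. IRE1α is a kinase and RNase of the endoplasmic reticulum that splices Xbp1 mRNA under stress and can also cut other RNAs, some miRNA precursors among them. The array probes target mature miRNA sequences, and whether precursors add to their signal was not tested. The question they bear on is whether the family's mature arms differ in level between diabetic and control progenitor cells. The study's published account of the family was not among the sources used here, so no published value stands beside these. In bulk RNA, fewer cells of a type and less RNA per cell cannot be told apart.

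The 10 mature sequences, each named with the mouse prefix mmu on the array, are given because their seeds, bases 2 to 8 in capitals, set the family's subgroups and because close sequences limit what a probe can tell apart. They are written 5′ to 3′, and the target printed for each array probe equalled the RefSeq sequence for 10 of 10 members.
mmu-miR-200b-3p: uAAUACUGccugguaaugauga
mmu-miR-200c-3p: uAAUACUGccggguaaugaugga
mmu-miR-429-3p: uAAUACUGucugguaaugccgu
mmu-miR-200a-3p: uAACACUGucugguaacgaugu
mmu-miR-141-3p: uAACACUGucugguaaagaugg
mmu-miR-200b-5p: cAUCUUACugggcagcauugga
mmu-miR-200a-5p: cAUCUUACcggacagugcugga
mmu-miR-200c-5p: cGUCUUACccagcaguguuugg
mmu-miR-429-5p: gUCUUACCagacaugguuaga
mmu-miR-141-5p: cAUCUUCCagugcaguguugga
On the 3p arms, the guide strands by which the family is known, 3 members share the seed AAUACUG and 2 share AACACUG. The 5p arms of miR-200a and miR-200b share AUCUUAC, and each of the other 5p arms has a seed of its own within the family. The seed of miR-141-5p was also carried by 1 other probe of the array, miR-6769b-3p. The sequences of miR-200b-3p and miR-200c-3p matched at 20 of 22 bases and differed by U11G and A22G, counted from the 5′ end of miR-200b-3p. Likewise miR-200a-3p and miR-141-3p matched at 20 of 22 bases and differed by C17A and U22G, counted from the 5′ end of miR-200a-3p. No file tests cross-hybridisation between these pairs, so their probes may share signal.

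The genes form 2 clusters on the minus strand of the mouse genome, with positions from RefSeq on GRCm38.p6. The hairpin of miR-200b lies at chr4:156055681-156055750, that of miR-200a at chr4:156054896-156054985 and that of miR-429 at chr4:156053905-156053987, all within the long non-coding RNA gene Gm13648 and next to Ttll10. The hairpin of miR-200c lies at chr6:124718322-124718390 and that of miR-141 at chr6:124717914-124717985, between Phb2 and Ptpn6. The miR-200c hairpin is shown because it alone of the 5 holds the 7-base motif CNGCAGN, a loose form of the site at which IRE1α cuts Xbp1, here in capitals and read on the RNA strand.
miR-200c hairpin: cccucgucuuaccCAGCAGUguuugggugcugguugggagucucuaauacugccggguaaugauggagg
The match starts at base 14 and lies inside the 5p arm, which spans bases 5 to 26. Of 1005 mouse hairpins in RefSeq, 12.6% held CNGCAGN. The stricter CUGCAG was in 0 of the 5 family hairpins and in 7.5% of all hairpins. These matches describe the letters and are no evidence of cutting.

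Most members averaged near the level of the blank spots over the 6 arrays, and miR-200b-5p was highest at 1.46 times the median blank. Each array held 4 spots with no probe, and the median blank was 44.0, 56.5 and 73.0 intensity units on the 3 db/db arrays, against 97.2, 63.9 and 39.1 on the 3 db/+ arrays, in replicate order. Over the 60 readings, 10 members on 6 arrays, the ratio of a member's mean signal to the median blank ran from 0.551 to 2.13 with a median of 0.999. Of these readings 30 (50%) lay above the median blank, against 70.1% of readings over all miRNA probes. The range of probes was wide at the same time: the brightest miRNA probe read between 22348 and 36847 units on db/db arrays and between 18213 and 42991 units on db/+ arrays.

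The brightest member was miR-200b-5p, usually taken as the passenger strand. It read 66.9, 79.9 and 79.8 units on the db/db arrays, against 125.4, 136.4 and 50.3 units on the db/+ arrays. That is 1.52, 1.42 and 1.09 times the median blank in db/db cells, against 1.29, 2.13 and 1.29 times in db/+ cells. The groups overlapped on both scales, and the highest ratio was that of db/+ replicate 2. It was the brightest member on 4 of 6 arrays. On db/+ replicate 1 its 2 spots read 106.2 and 144.7 units. The brighter of these spots was uneven, with a pixel SD of 95.02, against 13.09 for the other. The 125.4 units and the 1.29 times of that array include the uneven spot. Brightness here ranks probes, which hybridise differently, and is no order of abundance.

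The guide strands of the AAUACUG subgroup stayed close to the blanks. The probe for miR-200c-3p, the member best known for lowering Zeb1, read 69.7, 55.4 and 73.1 units in db/db cells, against 98.2, 84.1 and 46.0 units in db/+ cells. The probe for miR-200b-3p, the guide strand of that hairpin, read 61.9, 52.3 and 62.3 units in db/db cells, against 101.4, 73.4 and 44.0 units in db/+ cells. The probe for miR-429-3p, the third gene of the chromosome 4 cluster, read 62.2, 45.9 and 53.9 units in db/db cells, against 94.6, 57.1 and 53.9 units in db/+ cells. In all 3 probes the highest reading came from db/+ replicate 1, the array with the highest blanks, and the groups overlapped. Divided by the median blank, db/db replicate 1 was the highest for each of them, at 1.58, 1.40 and 1.41.

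The AACACUG subgroup read likewise near the blanks. The probe for miR-200a-3p, a known repressor of Zeb2, read 62.0, 52.1 and 58.9 units in db/db cells, against 87.3, 60.4 and 46.8 units in db/+ cells. The probe for miR-141-3p, from the chromosome 6 cluster, read 51.7, 49.0 and 50.1 units in db/db cells, against 83.3, 59.9 and 46.9 units in db/+ cells. Both pairs of groups overlapped. The mean ratio to the median blank over the 6 arrays was 1.03 for miR-200a-3p and 0.953 for miR-141-3p.

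The remaining 5p arms were near or below the blanks on most arrays. The probe for miR-200a-5p, which shares its seed with miR-200b-5p, read 57.6, 54.6 and 53.9 units in db/db cells, against 104.8, 61.3 and 47.7 units in db/+ cells. The 3 other 5p arms, of miR-141, miR-200c and miR-429, read between 35.5 and 57.5 units in db/db cells, against 43.5 to 92.4 units in db/+ cells. The lowest of all was miR-429-5p, with a mean ratio to the median blank of 0.855, and it was the dimmest member on 4 of 6 arrays.

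**Figure D1:**
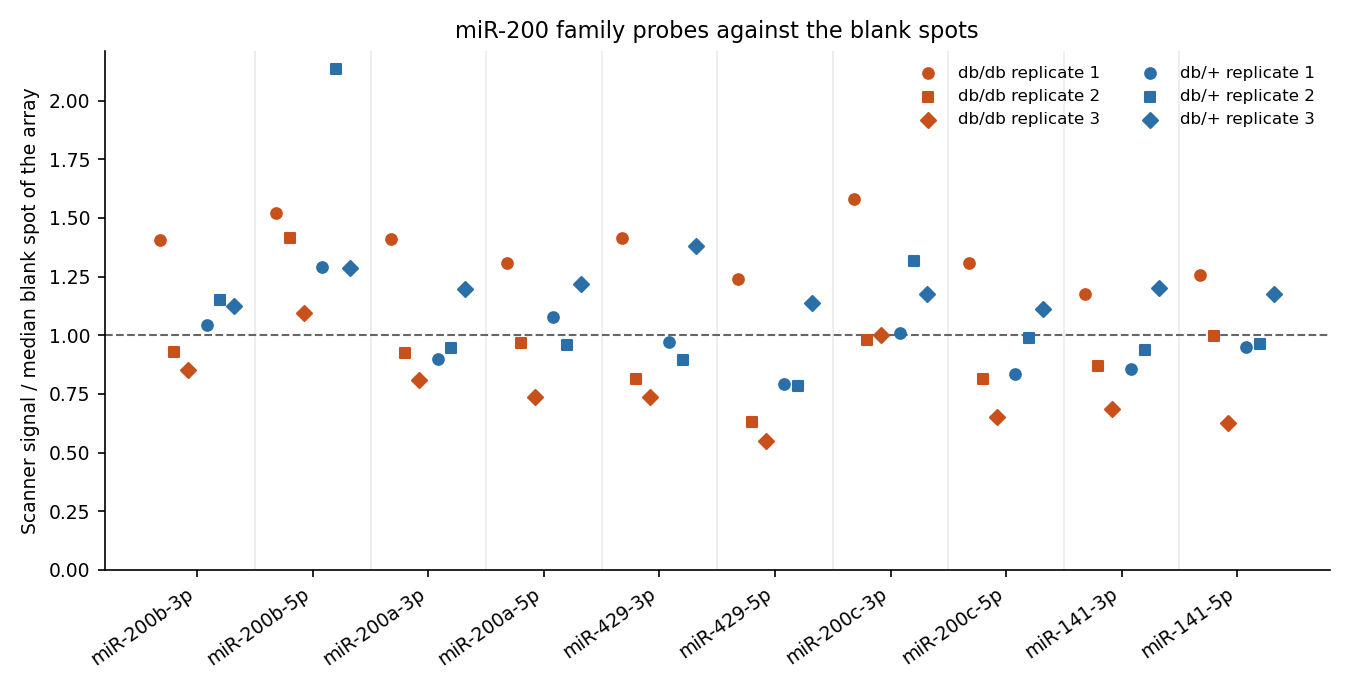
Mean signal of each miR-200 family probe divided by the median blank spot of the same array (y axis, ratio) for the 10 probes (x axis), with 1 point per array, db/db in orange left of db/+ in blue, and a dashed line at equality with the blanks. The points lie between 0.551 and 2.13, db/db replicate 1 and db/+ replicate 3 lie above the line for all 10 probes, and the groups overlap for every probe.

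The number of members counted as detected varied more between arrays of a genotype than between the genotypes. The limit for a detected probe was the 95th percentile of the 4 blanks on its array, set against the mean of its 2 spots. By that rule 10, 1 and 0 members were detected on the db/db arrays, against 2, 3 and 10 on the db/+ arrays. The same arrays ranked alike for all probes, of which 97.6%, 44.8% and 39.5% were detected on the db/db arrays, against 51.1%, 59.2% and 89.5% on the db/+ arrays. In sum 26 of 60 family readings (43.3%) were detected, 11 of 30 in db/db cells and 15 of 30 in db/+ cells, against 63.6% of readings over all probes. Of the 26, 20 came from db/db replicate 1 and db/+ replicate 3, and 6 of 40 from the other 4 arrays. The member detected most often was miR-200b-5p, on 2 db/db arrays and 3 db/+ arrays. Its mean percentile by scanner signal among all miRNA probes was 60.8. With the mean of the blanks plus 3 SD as the limit, 15 of 60 readings were detected.

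All 4 blanks lie in row 1 of an array of 128 rows, and the signal changed along the rows. The median miRNA spot of rows 1 to 8 was 1.08, 1.71 and 1.42 times that of rows 121 to 128 on the db/db arrays, against 1.40, 1.19 and 0.929 times on the db/+ arrays. The probes of miR-200a, miR-200b and miR-200c have 1 spot in rows 5 to 10 and 1 in rows 111 to 116. For these 6 probes the spot nearer row 1 was 1.25 to 1.69 times the other on db/db replicate 2 and 1.28 to 1.66 times on db/db replicate 3. The miRNA spots around them, within 5 rows and 5 columns, had medians that differed by 1.53 to 1.72 times and by 1.49 to 1.58 times on the same arrays. On db/+ replicate 3 the order was turned: the spot nearer row 1 was 0.798 to 0.946 times the other, and the surroundings 0.891 to 0.922 times. On these 3 arrays the 2 spots of each of the 6 probes differed in the same direction as the spots around them. On the other 3 arrays 14 of 18 pairs did and 4 went the other way. The 4 were miR-200b-5p on each of the 3 arrays and miR-200c-5p on db/+ replicate 2. The miR-200b-5p pair on db/+ replicate 1 holds the uneven spot named above, the one farther from row 1.

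**Figure D2:**
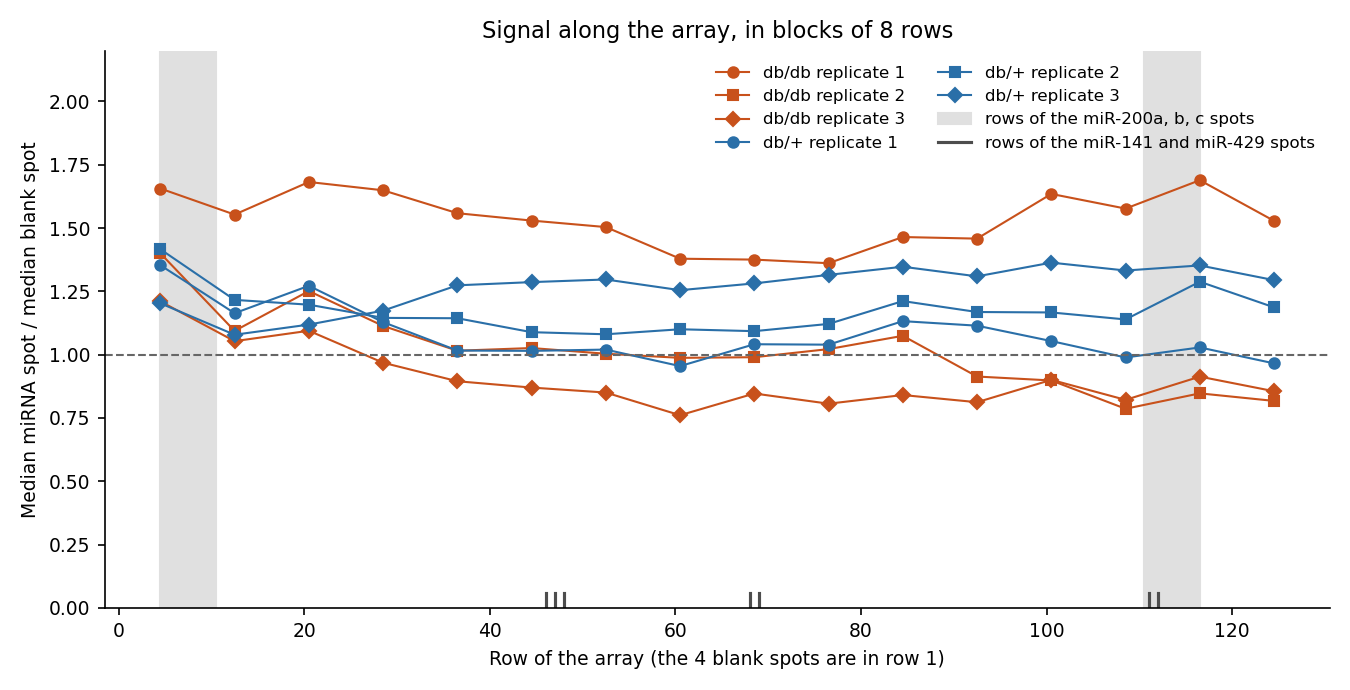
Median miRNA spot of each block of 8 rows divided by the median blank spot of the array (y axis, ratio) against the row (x axis), with 1 line per array, db/db in orange and db/+ in blue; grey bands mark the rows of the miR-200a, miR-200b and miR-200c spots and short ticks those of miR-141 and miR-429. On db/db replicates 2 and 3 and db/+ replicate 1 the lines lie above the blanks at rows 1 to 8 and below them at rows 121 to 128. The lines of db/db replicate 1 and db/+ replicates 2 and 3 lie above the blanks throughout.

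**Figure D3:**
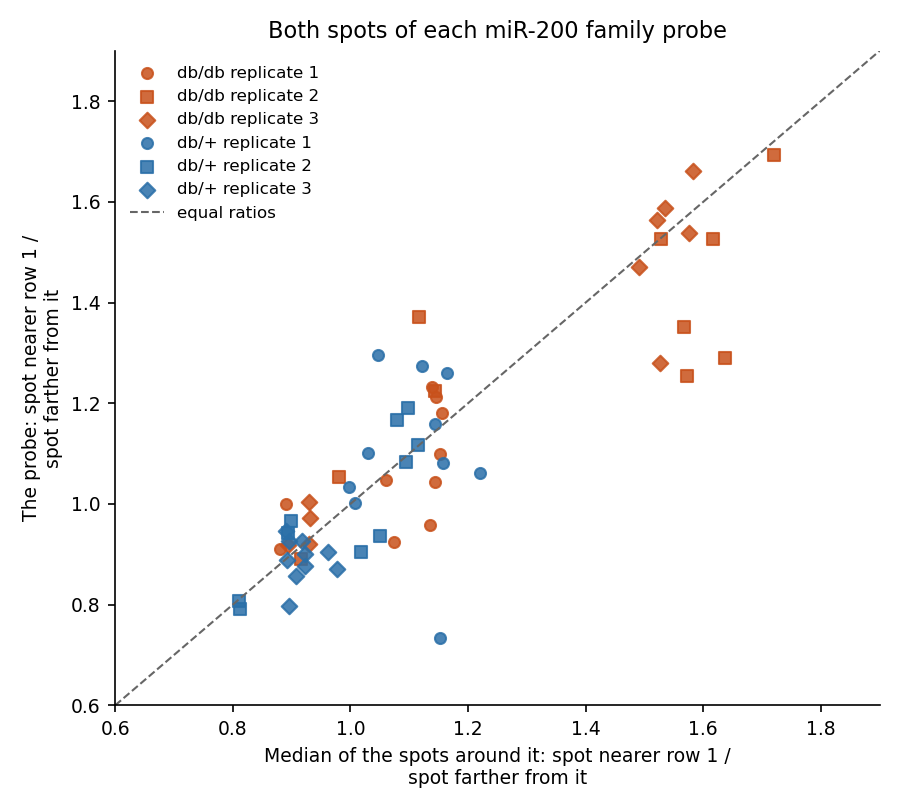
For each of the 10 probes on each array, the ratio of the spot nearer row 1 to the spot farther from it (y axis) against the same ratio for the medians of the spots around them (x axis), db/db in orange and db/+ in blue, with a dashed line of equal ratios. Points of db/db replicates 2 and 3 reach 1.69 on the y axis and 1.72 on the x axis, and the points of db/+ replicate 3 lie below 1 on both.

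Set against their own surroundings, the members were mostly below the local median. A member's mean log2 ratio to the surrounding spots was above 0 in 11 of 60 readings (18.3%), against 49.4% of readings over all miRNA probes. These were 2 members on each db/db array, against 1, 2 and 2 on the db/+ arrays. Of the 11, miR-200b-5p gave 6, since the mean of its 2 spots was above its surroundings on every array, by 1.01 to 1.68 times. Of its 12 single spots 9 were above their surroundings. Its spot nearer row 1 was at 0.926 and 0.999 times them on db/db replicates 1 and 3, and at 0.904 times on db/+ replicate 1. The probe for miR-200c-3p gave 3 more, and those for miR-429-3p and miR-141-5p gave 1 each. On this scale miR-200b-5p had log2 ratios of 0.01, 0.48 and 0.13 in db/db cells, against 0.18, 0.75 and 0.09 in db/+ cells. The groups overlapped.

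None of the tested members differed between db/db and db/+ cells by more than the replicates varied. Of the 10 members, 4 were detected on at least 3 of 6 arrays and so entered the comparison: miR-200b-3p, miR-200b-5p, miR-200a-5p and miR-200c-3p. None of the 4 passed limma's test with Benjamini-Hochberg adjustment at 0.05 over all 1181 tested probes, where 0% of probes were called in all. None had an unadjusted p under 0.05 either, where 59 of the 1181 did. The other 6 members were detected on only 2 arrays each and are given no fold change. With every probe in the fit, 0 of 10 members passed, and the smallest adjusted p of a member in limma was 0.884.

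The largest difference among the tested members was that of miR-200b-5p. Its normalized log2 values, which include an offset of 50 units, were 6.36, 6.70 and 6.55 in db/db cells, against 6.57, 7.09 and 6.38 in db/+ cells. The db/db minus db/+ difference was −0.15 (SE 0.21, 95% interval −0.64 to 0.35, limma adjusted p = 0.914). The groups overlapped, and without db/+ replicate 2, the highest sample, the difference was 0.058. With the blanks subtracted and no offset the same difference was −0.68 with an interval of −2.39 to 1.03.

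The other 3 tested members were nearer 0. The probe for miR-200c-3p averaged 6.40 ± 0.07 in db/db cells and 6.34 ± 0.15 in db/+ cells on the normalized log2 scale (SD, n = 3 each), a difference of 0.06 (SE 0.13, 95% interval −0.25 to 0.38, limma adjusted p = 0.943). The probe for miR-200b-3p averaged 6.27 ± 0.03 in db/db cells and 6.26 ± 0.14 in db/+ cells, a difference of 0.01 (SE 0.13, 95% interval −0.29 to 0.31, limma adjusted p = 0.992). The probe for miR-200a-5p averaged 6.20 ± 0.07 in db/db cells and 6.25 ± 0.13 in db/+ cells, a difference of −0.05 (SE 0.13, 95% interval −0.36 to 0.25, limma adjusted p = 0.951). In each the groups overlapped. These intervals hold for values with the offset, which draws the log2 differences of dim probes towards 0. A p that misses the threshold does not show that the groups are alike.

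The direction of all 4 depended on which spot was read. From the spot nearer row 1 alone, the db/db minus db/+ differences of miR-200b-3p, miR-200b-5p, miR-200a-5p and miR-200c-3p were 0.16, 0.058, 0.13 and 0.23. From the spot farther from row 1 they were −0.14, −0.35, −0.24 and −0.10 in the same order. The −0.35 includes the uneven miR-200b-5p spot of db/+ replicate 1. Scaled to the surroundings, with both spots, they were −0.034, −0.13, −0.10 and 0.065. All 95% intervals of these 12 differences included 0, and the smallest limma adjusted p was 0.836. All 3 ways of reading were chosen after the data were seen.

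**Figure D4:**
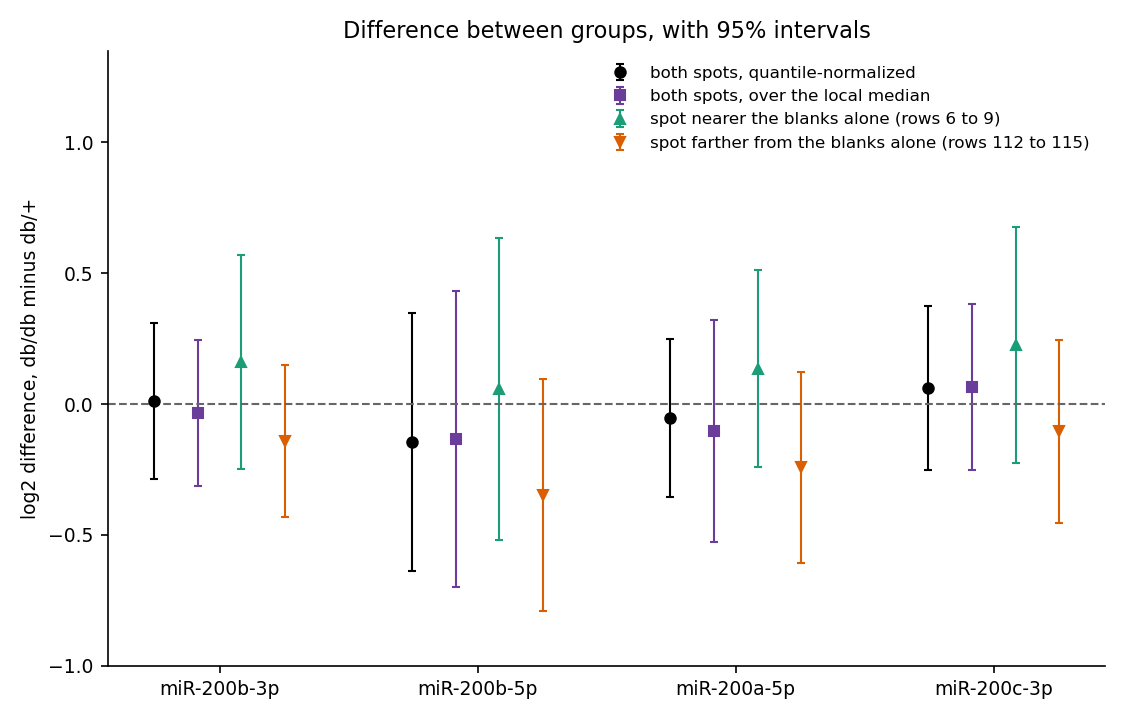
Log2 difference, db/db minus db/+ (y axis), of the 4 tested miR-200 probes (x axis), from both spots after quantile normalization, from both spots over the local median, and from each spot alone; bars are 95% intervals of the limma fit on 3 arrays per group. The spot nearer the blanks gives a value above 0 for each probe and the spot farther from them a value below 0, and every bar crosses 0.

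The share of probes whose groups do not overlap was near that of the whole table. Among tested probes 114 of 1181 (9.65%) had db/db and db/+ values that did not overlap, and 0 of the 4 tested members did. Without a filter on dim probes 206 of 1900 (10.8%) did, and 1 of the 10 members, miR-200a-3p. Its normalized log2 values were 6.25, 6.25 and 6.25 in db/db cells, against 6.15, 6.11 and 6.21 in db/+ cells. It was detected only on db/db replicate 1 and db/+ replicate 3, and as a ratio to the median blank or to the surroundings its groups overlapped.

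In the authors' deposited table of processed intensities most family values were low too, but not those of every member. The mean percentile of a member in that table ran from 11.3 for miR-429-5p to 59.4 for miR-200b-5p. It was 49.96 for miR-200c-3p and 42.5 for miR-200b-3p. The median of the table over miRNA probes lay between 13.0 and 14.1 in db/db samples and between 11.9 and 13.5 in db/+ samples. In the authors' deposited table, 44 of the 60 family values (73.3%) were under 10, against 44.5% of the values of all miRNA probes, and 12 were under 1. The highest was 68.5, that of miR-200b-5p in db/+ replicate 2. For miR-200b-5p the authors' deposited table gives 15.4, 34.3 and 25.5 in db/db samples, against 11.1, 68.5 and 16.0 in db/+ samples. For miR-200c-3p it gives 17.6, 12.0 and 18.7 in db/db samples, against 9.79, 23.7 and 7.32 in db/+ samples. Both pairs of groups overlapped.

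For miR-200a-3p the authors' deposited table gives 6.97, 6.97 and 7.37 in db/db samples, against 3.05, 0.029 and 5.85 in db/+ samples. Here the groups did not overlap, as on the normalized log2 scale, and all 6 values were under the median of their column. It was the only member whose groups were apart in the authors' deposited table. Put on the log2 scale with 1 added to each value of the authors' deposited table, the differences of the 4 tested members lay between 0.032 and 0.37, and the widest of their 95% intervals ran from −1.71 to 1.79.

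**Figure D5:**
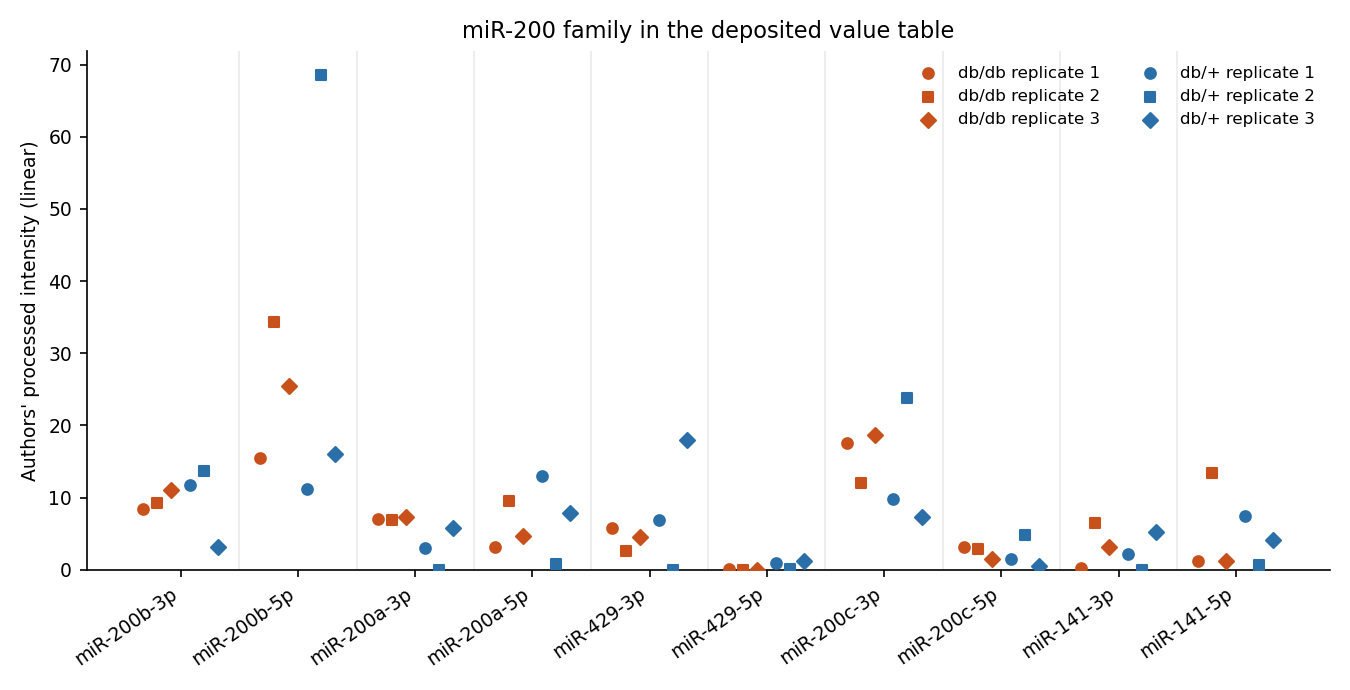
Processed intensity in the authors' deposited table (y axis, linear units) of the 10 miR-200 family probes (x axis), with 1 point per sample, db/db in orange left of db/+ in blue. Most points lie under 10, the highest is 68.5 for miR-200b-5p in db/+ replicate 2, and only miR-200a-3p has all db/db points above all db/+ points.

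Several markers of marrow-derived cells read far above the blanks. Detected on all 6 arrays were 2 of 4 haematopoietic, 4 of 4 myeloid, 1 of 2 endothelial and 4 of 4 stromal markers. The haematopoietic and myeloid miR-223-3p read 179 to 255 times the median blank in db/db cells, against 96.1 to 282 times in db/+ cells. The endothelial miR-126a-3p read 15.6 to 35.7 times in db/db cells, against 19.9 to 28.7 times in db/+ cells, while the other endothelial marker, miR-126a-5p, read 0.602 to 1.15 times in db/db cells, against 0.727 to 1.07 times in db/+ cells. The lymphocyte miR-150-5p, on the haematopoietic list, was near the blanks too, at 0.698 to 1.27 times in db/db cells, against 1.05 to 1.29 times in db/+ cells. The stromal miR-199a-3p read 30.7 to 88.8 times in db/db cells, against 61.2 to 113 times in db/+ cells. Of 5 epithelial markers outside the family 2 were detected on all 6 arrays, miR-192-5p and miR-194-5p, and the summed signal of the 5 was 428 to 484 units in db/db cells, against 370 to 766 units in db/+ cells. For comparison, 5 markers of liver, muscle and neurons, of which 0 were detected on all 6 arrays, summed to 243 to 284 units in db/db cells, against 235 to 454 units in db/+ cells.

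No other epithelial miRNA passed the test, and most were dim too. Of 19 probes 8 were tested and 0 passed limma's test, with 2 differences above 0, 6 below and a median of −0.08, beside a median of −0.02 over all tested probes. Their median was −0.043 without db/+ replicate 3 and −0.34 with the blanks subtracted. Their 2 brightest were miR-194-5p and miR-182-5p, from clusters known in gut and sensory epithelium, at a mean of 3.21 and 2.09 times the median blank. The smallest unadjusted p values were those of miR-182-5p, whose difference was −0.85 (SE 0.25, limma adjusted p = 0.894), and of miR-192-5p, whose difference was −0.45 (SE 0.16, limma adjusted p = 0.894). For the miR-200 family the tested members counted 2 above and 2 below 0, with a median of −0.02.

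Only some probes of the miRNAs reported elsewhere as IRE1α substrates read far above the blanks, and none passed either. The list holds miR-17, miR-34a, miR-96 and miR-125b, whose precursors IRE1α has been reported to cut in mouse fibroblasts. Of 9 probes 8 were tested and 0 passed limma's test, with 3 differences above 0, 5 below and a median of −0.16. Leaving out db/db replicate 2 gave a median of −0.087, and leaving out db/+ replicate 3 gave −0.0092. The brightest, miR-125b-5p, averaged 13.67 ± 0.03 in db/db cells and 13.92 ± 0.22 in db/+ cells on the normalized log2 scale (SD, n = 3 each), a difference of −0.26 (SE 0.15, limma adjusted p = 0.894). The differences were −0.25 for miR-17-5p, −0.37 for miR-17-3p, 0.11 for miR-34a-5p and −0.24 for miR-34a-3p. They were 0.01 for miR-125b-1-3p, 0.15 for miR-125b-2-3p and −0.09 for miR-96-5p. These last 3 probes were near the blanks, at a mean of 1.21, 1.10 and 1.02 times the median blank. The mean was 2.04 times for miR-17-3p and 1.95 times for miR-34a-3p. It was 235 times for miR-125b-5p, 27.8 times for miR-17-5p and 19.6 times for miR-34a-5p.

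The miR-466 family, a large group of repeat-derived miRNAs mostly from the Sfmbt2 gene, read farther above the blanks. The median ratio to the median blank was 0.999 for the 10 miR-200 probes, against 6.58 for the 27 miR-466 probes. Of the miR-200 probes 4 were bright enough to be tested, against 25 of the miR-466 probes. None of the 25 passed limma's test. Of their differences 22 were above 0 and 3 below, with a median of 0.25, and without db/+ replicate 3 that median was 0.027. It was 0.42 without db/db replicate 1 and 0.41 without db/+ replicate 2.

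The probes most like miR-200b-5p were sought among the tested probes outside the family. Likeness was the root-mean-square distance between log2 values over the 6 arrays, each probe centred on its own mean. Of 1177 tested probes outside the family the nearest were miR-470-5p at 0.0686, miR-7072-3p at 0.0706 and miR-878-3p at 0.0719, where the median distance was 0.316. The distances of the other members ran from 0.204 for miR-200b-3p, the other arm of the same hairpin, to 0.389 for miR-429-3p. Candidates outside the family far outnumbered the members, so smaller distances there are no result about the family. Across the whole table the smallest adjusted p in limma was 0.108, for miR-6238, which averaged 10.29 ± 0.60 in db/db cells and 7.44 ± 0.48 in db/+ cells (SD, n = 3 each), a log2 difference of 2.85.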

How the data were processed

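The authors deposited, per array, a scanner file whose header names 1 median intensity for every spot on a linear scale and no background. They also deposited a value table with 1 processed linear intensity per probe, whose correction and scaling no source used here states. Total RNA was poly(A)-tailed, tagged and stained with Cy5, per the labels' protocols.

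The computation used limma 3.58.1 (R 4.3.3): normexp correction with an offset of 50, quantile normalization over the miRNA spots, log2, and the mean of both spots per probe. Probes detected on at least 3 of 6 arrays were tested with lmFit and eBayes and Benjamini-Hochberg adjustment. The steps were tested on simulated data whose background did not change along the rows, so that test does not cover the row changes seen on these arrays. The labels do not say that the replicate numbers pair samples across the genotypes, so no block was used. Deviations from the group means of samples with the same number correlated at −0.039, −0.0028 and 0.033, which cannot decide whether they were paired. Sequences came from RefSeq tables, in which 1618 of 1900 array names were found. Plots were made in Python 3.11.15 (matplotlib 3.10.9).

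The members and lists were chosen with earlier results of these data known. Named were all members, the tested probes of the IRE1α list, and the 2 brightest probes and the 2 of smallest p of the epithelial list. Named too were the 3 probes outside the family most like the brightest member and the probe of smallest adjusted p. Alternatives covered background correction, normalization, the authors' table, filters, the variance model, array weights, a replicate block, single arrays left out and, chosen after seeing the data, local scaling and single spots. With 3 arrays per group, precision is limited for every value.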

Additional observations from a re-analysis of the deposited data

How the results depend on the processing

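No tested member passed limma's test under any of 22 settings (88 values, smallest adjusted p 0.792), but the sign turned in 20 of the 88. For miR-200b-3p the difference was −0.14 and −0.090 after scaling to the 75th percentile of the probes detected on all arrays and of all probes, −0.027 with cyclic loess, −0.077 without normalization, −0.012 with array weights, −0.034 with local scaling and −0.14 from the spot farther from row 1. For miR-200c-3p it was −0.063 and −0.016 with the 2 scalings, −0.0034 without normalization and −0.10 from the farther spot. The first scaling also moved the median of all tested probes to −0.11. For miR-200b-5p it was 0.032 and for miR-200a-5p 0.039 with log2(value + 1) of the authors' table, and 0.058 and 0.13 from the spot nearer row 1. With single arrays left out, miR-200b-3p ranged from −0.075 to 0.052 (below 0 without db/db replicate 3 or db/+ replicate 3), miR-200b-5p from −0.32 to 0.058 (above 0 without db/+ replicate 2), miR-200a-5p from −0.12 to 0.0074 (above 0 without db/+ replicate 1) and miR-200c-3p from −0.0034 to 0.15 (below 0 without db/+ replicate 3). The cause was not tested. Over the whole table, where 0 probes passed, 1 passed with an offset of 10, 4 and 1 with the 2 scalings, 1 among probes detected on all 6 arrays, 2 with eBayes trend and robust, and 1 from the nearer spot; with single arrays left out 0 to 3 passed, the 3 without db/db replicate 2. The replicate block gave 0 probes and changed no call. Of the 60 family readings, 26 were detected as reported, 15 above the mean of the blanks plus 3 SD and 11 above the local median. Only 4 blanks, all in row 1, set the detection limit, and the smallest change that could be detected at these signals was not determined.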
